A study of Homo sapiens with 45 samples.

Results

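HOX paralog groups 6 to 8 hold 8 of the 58233 genes in the count table. They are HOXA6, HOXB6 and HOXC6 of group 6, HOXA7 and HOXB7 of group 7, and HOXB8, HOXC8 and HOXD8 of group 8. The members were chosen by name, from the paralog groups to which they belong, and each was matched by its Ensembl identifier to a GENCODE release 29 symbol. All 8 passed the filter on low counts.

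Polyadenylated RNA was sequenced from cultures of H9 cells, a human embryonic stem cell line in wide use, on the way to motor neurons. There were 45 libraries from 15 days, 3 for each of days 0 to 15 except day 3. Before day 0 every culture had been in CHIR99021 (3 µM), which activates Wnt signalling, bFGF (5 ng/ml), the TGF-β receptor inhibitor SB431542 (10 µM) and the BMP receptor inhibitor DMH1 (2 µM), and the starting cells are described as neuromesodermal progenitors. Libraries of days 1 to 15 are labelled as treated with retinoic acid (RA, 100 nM) and SAG (500 nM), a Smoothened agonist, and those of day 0 as control. A ROCK inhibitor was present at the start of both culture phases. Time, treatment and replating changed together after day 0, and no untreated culture of a later day was analysed here. The labels call the replicates bioreps and do not say whether they came from separate cultures, so p-values measure only the spread between these libraries, all of 1 cell line.

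HOX genes encode homeodomain transcription factors that give cells their position along the head to tail axis. They lie in the HOXA, HOXB, HOXC and HOXD clusters, and their order along a cluster matches the order in which they are switched on, in time and in space. Groups 6 to 8 lie in the middle of the clusters and are used in the lower cervical, brachial and upper thoracic spinal cord. In mouse and chick, Hoxc6 marks motor neurons at limb level, Hoxc8 acts in motor pools of the lower brachial cord, and Hoxc9 marks thoracic motor neurons. RA favours the 3′ genes of the clusters, while Wnt and FGF signals, partly through CDX factors, favour central and 5′ genes.

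The 8 genes sit at 4 places in GRCh38. HOXA6 (ENSG00000106006, chromosome 7, 27145396 to 27150603) and HOXA7 (ENSG00000122592, chromosome 7, 27153716 to 27157936) are neighbours on the minus strand. HOXB6 (ENSG00000108511, chromosome 17, 48595751 to 48604992), HOXB7 (ENSG00000260027, chromosome 17, 48607227 to 48633572) and HOXB8 (ENSG00000120068, chromosome 17, 48611377 to 48614939) are also on the minus strand. HOXC6 (ENSG00000197757, chromosome 12, 53990624 to 54030823) and HOXC8 (ENSG00000037965, chromosome 12, 54009106 to 54012362) are on the plus strand, as is HOXD8 (ENSG00000175879, chromosome 2, 176129694 to 176132695). Several of these spans overlap. The HOXC8 span lies within that of HOXC6, and the HOXB8 span lies within that of HOXB7, whose span also covers HOXB9. HOXA6 and HOXA7 overlap the antisense gene HOXA-AS3, HOXB6 overlaps HOXB3 and the antisense HOXB-AS3, and HOXD8 overlaps the antisense HOXD-AS2. HOXA6 also overlaps HOXA3, and HOXC6 also overlaps HOXC4, HOXC9 and a processed transcript named HOXC5. The HOXC5 values given below are those of a separate protein-coding entry of that name. Which strand was counted is not stated by the labels, so reads of overlapping genes may have been shared between them.

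The microRNAs of the miR-196 family are made from the same clusters, and HOXB8 messenger RNA is their best known target, so their sequences are shown with the matching stretches of the members. The seed (bases 2 to 8) is in capitals, and the mature sequences are from RefSeq (GRCh38.p14).
hsa-miR-196a-5p: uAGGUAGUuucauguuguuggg
hsa-miR-196b-5p: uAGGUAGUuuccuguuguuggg
miR-196a comes from MIR196A1 (chr17:48632532-48632553, minus strand), inside the HOXB7 span, and from MIR196A2 (chr12:53991762-53991783, plus strand), inside the HOXC6 span. miR-196b comes from MIR196B (chr7:27169528-27169549, minus strand). MIR196A1 and MIR196A2 had 0 counts in all 45 libraries, and libraries of polyadenylated RNA do not measure mature microRNAs.

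The 3′ UTR of 1 GENCODE release 29 transcript of each member was searched for ACTACCT, the reverse complement of the miR-196 seed. HOXA7 held 4 such stretches, HOXC8 held 2, and HOXB6 and HOXB7 held 1 each, while HOXA6, HOXC6, HOXB8 and HOXD8 held none. The HOXB8 3′ UTR instead holds 1 stretch that pairs along all 22 bases of miR-196a, with 21 Watson-Crick pairs and 1 G:U pair, which lies in the seed. The stretch is shown with the best-paired one of HOXA7 and one of HOXC8, all as DNA, with the bases opposite the seed in capitals.
HOXB8 (chr17:48612770-48612791, minus strand): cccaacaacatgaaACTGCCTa
HOXA7 (chr7:27154430-27154451, minus strand): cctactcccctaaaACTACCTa
HOXC8 (chr12:54012231-54012252, plus strand): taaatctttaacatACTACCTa
The HOXA7 stretch has 15 Watson-Crick pairs with miR-196a and the HOXC8 stretch has 12. These matches describe sequence, and no value here tests whether the microRNAs acted on the transcripts.

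RefSeq start regions (250 bases before to 50 after the start, GRCh38.p14) were at hand for HOXA6, HOXA7 and HOXD8. HOXD8 and HOXA7 are printed because their messenger RNA had the widest and the narrowest range over the days among these 3 genes. In the HOXD8 region the capitals mark TTTATGG, a CDX-like motif 92 bases before the start, and the reverse complement of AGTTCA, a variant of the nuclear receptor core motif 18 bases before it.
HOXD8 (chr2:176129455-176129754, plus strand): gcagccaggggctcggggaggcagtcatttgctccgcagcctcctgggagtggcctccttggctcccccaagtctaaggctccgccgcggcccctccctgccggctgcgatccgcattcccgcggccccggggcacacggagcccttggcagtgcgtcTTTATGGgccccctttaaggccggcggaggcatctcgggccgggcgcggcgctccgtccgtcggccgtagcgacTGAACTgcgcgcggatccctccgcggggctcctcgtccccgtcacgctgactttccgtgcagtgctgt
HOXA7 (chr7:27156626-27156925, minus strand): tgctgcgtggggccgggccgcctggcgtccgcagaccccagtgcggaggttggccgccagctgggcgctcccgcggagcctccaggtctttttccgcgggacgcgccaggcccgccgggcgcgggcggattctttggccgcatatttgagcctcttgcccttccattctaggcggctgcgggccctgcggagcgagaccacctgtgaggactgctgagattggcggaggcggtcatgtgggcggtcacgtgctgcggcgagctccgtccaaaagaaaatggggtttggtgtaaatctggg
Both strands were searched for the CDX-like motifs TTTATTA and also TTTATGG, for the HOX and PBX motif TGATTNAT, for the nuclear receptor motif AGGTCA or its variant AGTTCA, and for the TATA motif TATAAA. None of them was found in the HOXA6 and HOXA7 regions. Of 27305 start regions of the same length, 2.66% hold TTTATGG and 10.5% hold AGTTCA, while 4.36% hold TTTATTA, 2.94% TGATTNAT, 13.9% AGGTCA and 12.0% TATAAA. All 3 regions are rich in CpG, with 29 in HOXA6, 31 in HOXA7 and 34 in HOXD8, against a median of 14 over all regions. A match is a description of letters, and neither binding nor methylation was measured.

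Library totals ran from 22835854 to 39066286 counts. Neural progenitor markers (8 genes, among them SOX1, PAX6 and OLIG2) summed to between 1882 and 1945 TPM on day 1 and to between 312 and 383 TPM on day 0. Neuron markers (8 genes, among them TUBB3, ELAVL3 and CHAT) summed to between 472 and 487 TPM on day 0. Their sum lay between 302 and 318 TPM on day 1 and between 3002 and 3384 on day 8. It lay between 3553 and 3889 TPM on day 9 and between 1985 and 2468 on day 15. Paraxial mesoderm markers (8 genes) summed to between 2.83 and 11.7 TPM over the course, with MSGN1 and PAX1 at 0 on day 15. Their sum lay between 2.83 and 3.01 TPM on day 1 and between 6.91 and 11.7 on day 10. Of the 6 that passed the filter on low counts, 3 were higher on day 15 than on day 0 and 2 lower. Glia markers (8 genes) summed to between 51.7 and 57.6 TPM on day 0, between 289 and 311 on day 8 and between 308 and 400.4 on day 15. All libraries carry the same cell type label, of ES-derived neural progenitors, so the label does not follow the neuron markers.

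The HOXB genes gave most of the RNA of groups 6 to 8 on every day. Levels between genes are compared in TPM, which is scaled for transcript length as well as depth. HOXB8 was the highest of the 8 throughout, at 343 ± 7.0 TPM on day 15 and 106 ± 6.9 TPM on day 0 (mean ± SD, n = 3 here and below). On day 0 it was followed by HOXB7 (28.9 ± 1.5 TPM) and HOXB6 (28.8 ± 2.8), whose libraries overlapped, and then by HOXC8 (17.7 ± 5.0), HOXC6 (13.5 ± 3.1) and HOXA7 (8.11 ± 3.0), where each overlapped the next. HOXD8 (0.347 ± 0.057 TPM) and HOXA6 (0.147 ± 0.13) stood close to 0. By day 15 the order was HOXB8, HOXC6 (126 ± 5.6 TPM), HOXB6 (105 ± 5.0), HOXC8 (56.1 ± 2.8), HOXB7 (26.1 ± 3.5), HOXD8 (19.8 ± 0.77), HOXA6 (11.9 ± 0.66) and HOXA7 (11.7 ± 2.5), and only HOXA6 and HOXA7 overlapped among neighbours in that order.

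The makeup of the group moved between clusters. HOXB members held 80.6% ± 4.9 of the summed TPM of the 8 genes on day 0, 93.3% ± 0.26 on day 2 and 67.8% ± 0.58 on day 15. HOXC members held 15.2% ± 3.5 on day 0, 1.56% ± 0.26 on day 1, 15.3% ± 0.58 on day 8 and 26.1% ± 0.28 on day 15. HOXD8 held 0.170% ± 0.027 on day 0, 6.86% ± 0.24 on day 7, its highest share, and 2.82% ± 0.15 on day 15. HOXA6 and HOXA7 together stayed between 1.90% on day 9 and 6.43% on day 1. Of the summed TPM of 39 HOX genes, groups 6 to 8 made up 16.6% ± 0.32 on day 0, 24.9% ± 0.49 on day 8 and 26.8% ± 1.2 on day 15.

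**Figure D1:**
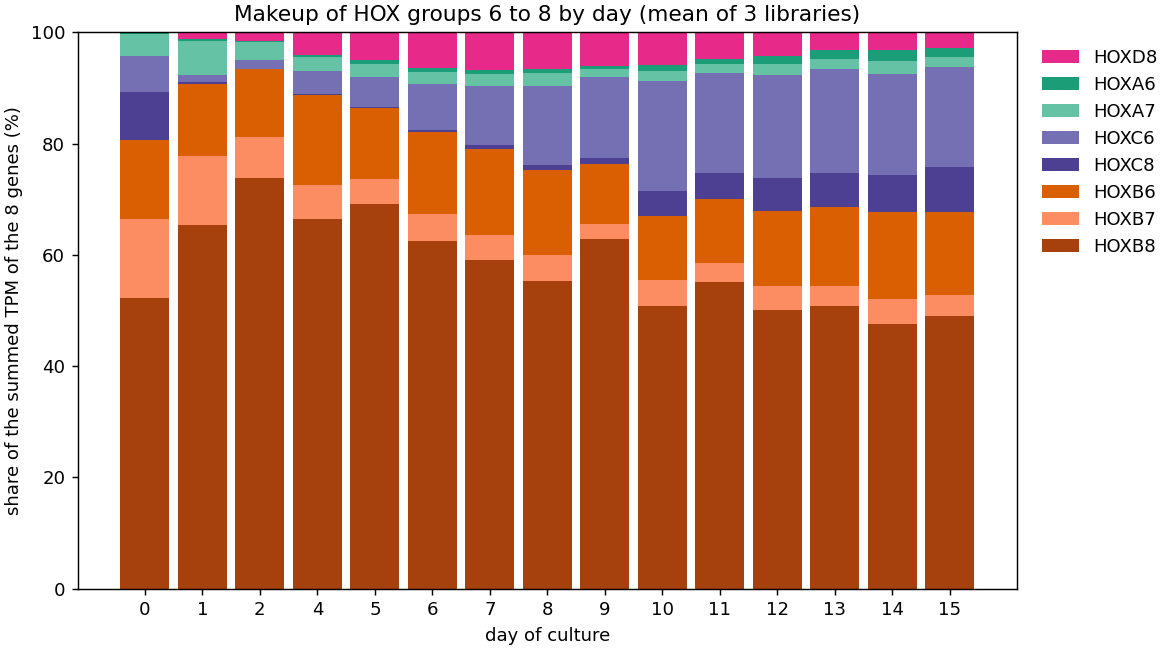
Share of each gene in the summed TPM of the 8 genes (percent, mean of 3 libraries) by day of culture, as stacked bars. HOXB8 is the largest part on every day, and the HOXC genes nearly vanish on days 1 and 2 and hold 26.1% on day 15.

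Each of the 8 genes changed over the course (F test of all day terms in edgeR, quasi-likelihood, with Benjamini-Hochberg adjusted p of 1.6e-08 or lower), as did 91.5% of the 19436 genes tested. From here on, levels of a gene between days are CPM, counts per 1000000 scaled by TMM, log2 changes are given ± SE, and a change was called at an adjusted p under 0.05 in that test. HOXC8, HOXC6, HOXD8 and HOXA6 spanned 210-fold, 109-fold, 94.9-fold and 72.2-fold between their lowest and highest day means. HOXB6 and HOXB8 spanned 7.23-fold and 5.51-fold, and HOXB7 and HOXA7 2.54-fold and 2.31-fold. After day 0, the first day on which a gene reached 50% of its highest day mean after day 0 was day 1 for HOXB7, day 4 for HOXB6, HOXA7 and HOXB8, day 5 for HOXD8, day 8 for HOXC6, day 11 for HOXC8 and day 12 for HOXA6. HOXB6 was slightly under that level again on day 5. For HOXB7, day 1 was the lowest day of all (7.95 CPM), so its day marks no rise. HOXA7 was not called higher on day 4 than on day 2 (adjusted p = 0.19). HOXC8 was close to its level on day 11, with libraries at 30.2, 29.6 and 21.7 CPM and a highest day mean of 53.9. Its rise from day 10 to day 11 was not called (adjusted p = 0.22).

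**Figure D2:**
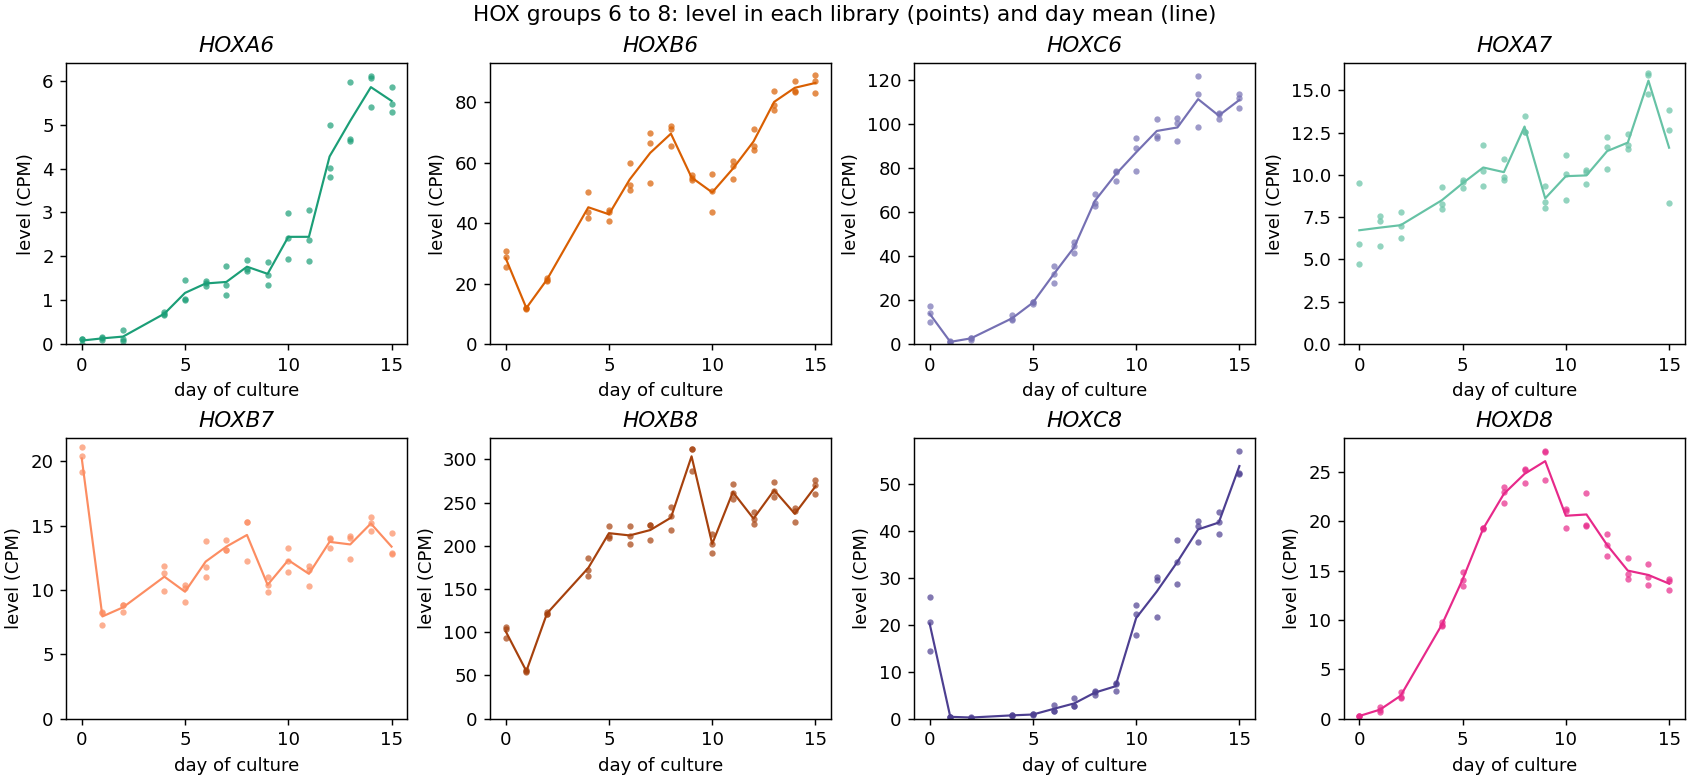
Level in CPM (linear axis from 0) against day of culture for each of the 8 genes, with a point per library and a line through the day means. HOXC6 and HOXC8 drop on day 1 and climb later, HOXB7 is highest on day 0, and HOXD8 peaks on day 9 and falls to 13.7 CPM on day 15.

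The comparison of day 1 with day 0 shows how the members stood after the first day in RA and SAG. Of the 8 genes, 5 fell and 1 rose. HOXC8 had 0.431, 0.398 and 0.389 CPM on day 1, against 20.6, 25.9 and 14.5 CPM on day 0. Every day 1 library was far below every day 0 library, a 49.4-fold lower level (log2 change -5.63 ± 0.28, adjusted p = 8.0e-19). HOXC6 had 0.896, 1.36 and 0.822 CPM on day 1, against 14.0, 17.3 and 10.3 CPM on day 0. It was 13.3-fold lower, again with no overlap (-3.73 ± 0.18, adjusted p = 1.5e-19). HOXB7 averaged 7.95 ± 0.55 CPM on day 1 and 20.2 ± 1.0 on day 0 (-1.34 ± 0.091), HOXB6 11.9 ± 0.16 and 28.4 ± 2.7 (-1.25 ± 0.091), and HOXB8 55.1 ± 1.2 and 101 ± 6.8 (-0.88 ± 0.054), with adjusted p of 4.9e-15 or lower. The log2 falls of both HOXC genes were larger than those of the 3 HOXB genes, a difference that was not itself tested. HOXD8 was the one that rose, with 0.664, 0.929 and 1.17 CPM on day 1, against 0.303, 0.275 and 0.248 CPM on day 0 (1.70 ± 0.22, adjusted p = 7.8e-08). Its day 1 libraries all lay above those of day 0, at low counts of 20 to 28 on day 1 and 8 to 10 on day 0.

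HOXA6 and HOXA7 were not called on day 1. HOXA6 had 5, 3 and 3 counts on day 1 and 4, 4 and 0 on day 0, and its log2 change was 0.67 ± 0.62 (adjusted p = 0.37). HOXA7 averaged 6.88 ± 0.97 CPM on day 1 and 6.73 ± 2.5 CPM on day 0. In TPM the same gene averaged 5.62 ± 0.81 on day 1 and 8.11 ± 3.0 on day 0, and limma on log2(TPM + 1) called it lower (-0.42, adjusted p = 0.010). In CPM it had no called direction in edgeR (0.03 ± 0.16, adjusted p = 0.90), and the limma fit differs in method as well as unit. The ratio of TPM to CPM of HOXA7 was 0.816 on day 1 and 1.21 on day 0, and its part in this difference was not tested. Without replicate 2 it was called higher in CPM (0.47, adjusted p = 0.026). Of all genes tested, 61.7% were called between day 1 and day 0, 30.1% higher and 31.7% lower, so 6 of 8 members called is near the background. The median log2 change was -1.06 over the members and 0 over all genes.

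The 3 day 0 libraries kept a common order for several members. Replicate 2 was highest and replicate 3 lowest for HOXC8, HOXC6 and HOXA7, and HOXB6 had the same order, while HOXB7 and HOXB8 were lowest in replicate 2 and highest in replicate 3. The share of counts from the mitochondrial genome was 3.65% to 5.29% on day 1, against 2.24% to 3.21% on day 0, and 7 of the 8 neural progenitor markers were called higher on day 1. Whether these differences had a part in the member changes was not tested. RNA was taken from whole cultures, so fewer cells expressing a gene and less RNA per cell cannot be told apart.

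Other HOX genes and tail bud factors were examined from lists. In groups 9 and 10 of the HOX genes, 4 of 7 passed the filter on low counts and 3 of these fell on day 1. HOXA9 had 2 counts in all on day 1 and 61 on day 0 (-4.50 ± 0.80). HOXB9, the next gene 5′ of HOXB8, had 134 ± 0.47 CPM on day 1 and 846 ± 47 on day 0 (-2.66 ± 0.057). HOXC9, next to HOXC8, had 0.151 ± 0.13 CPM on day 1 and 0.967 ± 0.38 on day 0 (-2.61 ± 0.47). In groups 4 and 5, 3 of 7 rose and 4 fell, with HOXD4 at 46.6 ± 1.4 CPM on day 1 and 7.44 ± 1.3 on day 0, HOXA5 at 5.28 ± 0.21 and 1.53 ± 0.12, and HOXC4 at 10.3 ± 0.94 and 65.0 ± 14. HOXC4 fell as HOXC6 and HOXC8 did, and HOXD4 rose as HOXD8 did. Groups 1 to 3 had 4 risen and 3 fallen genes among 8, of which HOXD3, 3′ of HOXD4, had 10.8 ± 1.8 CPM on day 1 and 1.02 ± 0.12 on day 0. None of the 9 genes of groups 11 to 13 passed the filter.

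Of 13 CDX and tail bud factors tested, 11 fell on day 1 and 2 rose. The largest falls were those of EVX1, at 0.0919 ± 0.045 CPM on day 1 and 14.9 ± 10.0 on day 0, FGF17, at 2.48 ± 0.31 and 216 ± 73, WNT8A, at 0.564 ± 0.10 and 26.3 ± 5.8, and NKX1-2, a factor of the caudal epiblast, at 25.8 ± 1.0 and 978 ± 66. CDX2, a homeodomain factor that activates central HOX genes, had 23.7 ± 0.36 CPM on day 1 and 490.4 ± 20.0 on day 0 (-4.37 ± 0.096). CDX1, its paralog, had 9.39 ± 0.39 CPM on day 1 and 75.7 ± 24 on day 0 (-3.01 ± 0.19). Of 9 HOX cofactors, 5 were higher on day 1 and 3 lower. MEIS1 had 35.8 ± 1.2 CPM on day 1 and 0.735 ± 0.14 on day 0, and MEIS2 had 170.0 ± 4.8 and 10.5 ± 3.9. HOXA-AS3, antisense to HOXA6 and HOXA7, had 3.40 ± 0.22 CPM on day 1 and 259 ± 48 on day 0 (-6.25 ± 0.17). HOXA6 and HOXA7, on the other strand, were not called in that interval.

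The comparisons of day 2 with day 1 and of day 4 with day 2 follow the return of the members. On day 2, 4 of 8 rose and 0 fell, against 23.3% of all genes called, 11.4% higher and 11.9% lower. HOXB8 had 121, 123 and 121 CPM on day 2 and 55.6, 55.9 and 53.6 CPM on day 1 (1.14 ± 0.054, adjusted p = 2.0e-19). The replicates were tight and far apart between the days, and the day 2 mean was above that of day 0. HOXB6 averaged 21.4 ± 0.47 CPM on day 2 and 11.9 ± 0.16 on day 1, HOXC6 2.64 ± 0.47 and 1.03 ± 0.29, and HOXD8 2.33 ± 0.31 and 0.920 ± 0.25. HOXC8 did not pass the test, with 11, 6 and 5 counts on day 2 and 13, 12 and 9 on day 1, and HOXA6, HOXA7 and HOXB7 were not called either.

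On day 4, 7 of 8 were higher than on day 2 and 0 lower, against 35.5% of all genes called, 19.5% higher and 15.9% lower. The median log2 change was 1.29 over the members and 0.0035 over all genes. HOXC6 had 11.3, 10.8 and 13.3 CPM on day 4 and 2.82, 2.10 and 3.00 on day 2 (2.17 ± 0.16, adjusted p = 8.1e-14). HOXD8 had 9.46, 9.36 and 9.81 CPM on day 4 and 2.22, 2.68 and 2.09 on day 2 (2.03 ± 0.10, adjusted p = 1.0e-18). Both were over 4-fold higher with no overlap between libraries. HOXA6, a group 6 gene next to HOXA7, averaged 0.694 ± 0.038 CPM on day 4 and 0.173 ± 0.14 on day 2 (1.95 ± 0.39), and HOXB6 averaged 45.2 ± 4.3 and 21.4 ± 0.47 (1.09 ± 0.085). The rises of HOXB8 (0.52 ± 0.052) and HOXB7 (0.36 ± 0.093) were smaller, and HOXA7 was not called (0.28 ± 0.16, adjusted p = 0.19). The call of HOXC8 (1.49 ± 0.53, adjusted p = 0.026) rests on 11 to 28 counts per library on day 4 and 5 to 11 on day 2. It was lost with no filter on low counts (adjusted p = 0.071) and without replicate 1 (adjusted p = 0.16), and that of HOXB7 was lost without replicate 1 (adjusted p = 0.062).

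All 8 members were higher on day 8, against 53.2% of all genes called, 27.1% higher and 26.0% lower. HOXC8 had 5.76, 5.84 and 5.12 CPM on day 8 and 0.889, 0.497 and 0.769 on day 4 (2.91 ± 0.28, adjusted p = 8.5e-11), and HOXC6 had 68.5, 62.7 and 64.4 and 11.3, 10.8 and 13.3 (2.46 ± 0.11, adjusted p = 2.0e-19). These were the largest changes among the members, 7.51-fold and 5.50-fold. HOXD8 averaged 24.8 ± 0.79 CPM on day 8 and 9.54 ± 0.23 on day 4 (1.38 ± 0.081), and HOXA6 1.76 ± 0.13 and 0.694 ± 0.038 (1.34 ± 0.26). The changes of HOXB6, HOXA7, HOXB8 and HOXB7 lay between 0.37 and 0.62 on the log2 scale, and that of HOXA7 was not called without replicate 1 (adjusted p = 0.064). The median was 0.98 over the members and -0.0022 over all genes.

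Of 17 motor column and pool genes, 10 were higher on day 8 than on day 4 and 2 lower, after 9 higher and 2 lower on day 4 against day 2. ISL2 and MNX1, homeodomain factors of motor neurons, had 14.2 ± 0.37 and 23.8 ± 2.1 CPM on day 8, against 0.115 ± 0.021 and 1.13 ± 0.21 CPM on day 4. ISL1 had 12.6 ± 1.1 CPM on day 8 and 0.499 ± 0.21 on day 4, and ALDH1A2, which makes retinoic acid, had 2.91 ± 0.59 and 0.262 ± 0.072. ETV4, an ETS factor that in chick and mouse marks some motor pools of the lower brachial cord, had 8.93 ± 0.41 CPM on day 8 and 4.63 ± 1.2 on day 4. Of the 8 neuron markers all were higher on day 8, after 7 of 8 on day 4 against day 2, and of the 8 neural progenitor markers 2 were higher on day 8 and 6 lower. Of 6 neural crest markers, 4 were tested, and 1 was higher on day 8 and 0 lower, with a median log2 change of 0.99. SOX10, 1 of the 6, had 2 counts in all on day 8 and 0 on day 4. Their part in the member changes was not tested.

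**Figure D3:**
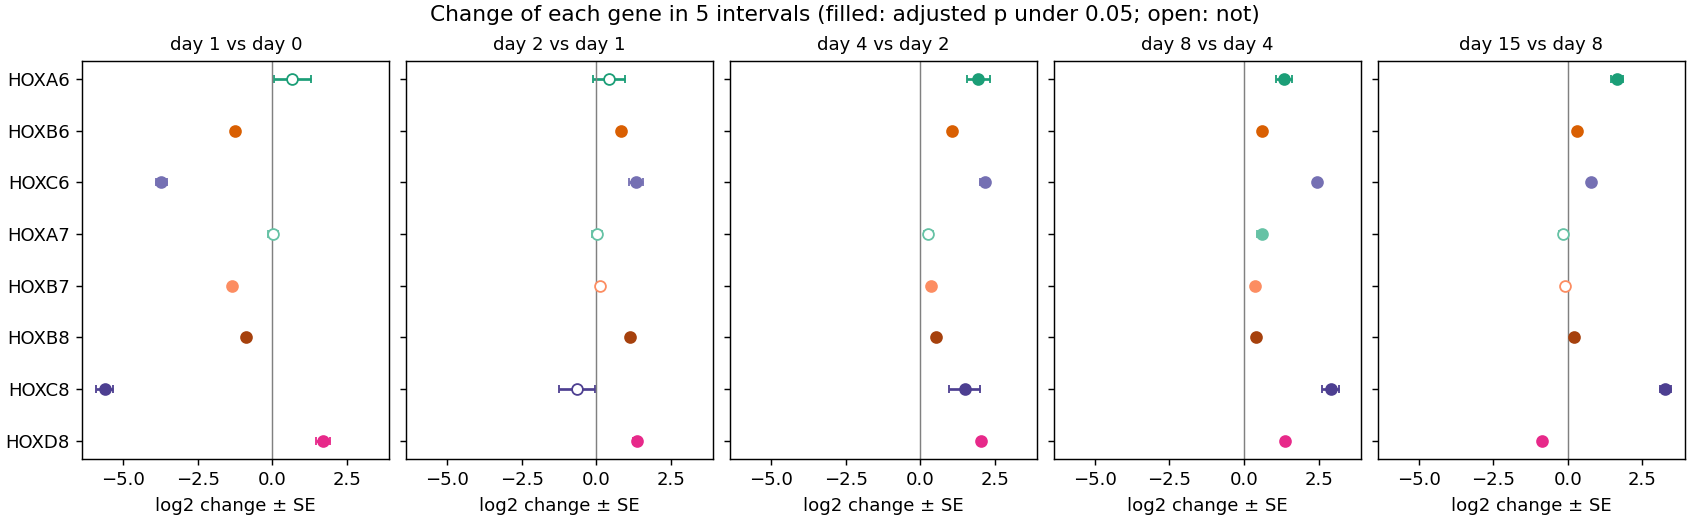
Log2 change (x axis, ± SE) of each gene in 5 intervals, later day against earlier day, from the edgeR fit, with filled points for an adjusted p under 0.05. HOXC8 ranges from -5.63 on day 1 against day 0 to 3.27 on day 15 against day 8, and HOXA7 is filled in 1 interval only.

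Day 15 was set against day 8 to follow the members over the later days. Of the 8 members, 5 were higher on day 15 and 1 was lower, against 50.7% of all genes called, 24.9% higher and 25.8% lower. HOXC8 had 52.4, 52.3 and 57.1 CPM on day 15 and 5.76, 5.84 and 5.12 on day 8, a 9.66-fold difference with no overlap (3.27 ± 0.18, adjusted p = 3.8e-17). HOXA6 had 5.86, 5.29 and 5.47 CPM on day 15 and 1.91, 1.66 and 1.72 on day 8, 3.14-fold higher (1.65 ± 0.20, adjusted p = 8.0e-09). HOXC6 averaged 111 ± 3.3 CPM on day 15 and 65.2 ± 3.0 on day 8 (0.77 ± 0.099), and HOXB6 86.3 ± 3.1 and 69.6 ± 3.7 (0.31 ± 0.078). HOXD8 went against them, with 13.0, 14.0 and 14.1 CPM on day 15 and 25.3, 23.9 and 25.2 on day 8, a 1.81-fold lower level (-0.86 ± 0.077, adjusted p = 4.4e-12). HOXD8 and HOXC8, of the same paralog group, both rose between day 4 and day 8 and moved in opposite directions after it. HOXA7 (-0.15 ± 0.15, adjusted p = 0.41) and HOXB7 (-0.09 ± 0.086, adjusted p = 0.39) were not called.

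The small rise of HOXB8 between day 8 and day 15 (0.21 ± 0.051, adjusted p = 6.6e-04) turned on the days chosen. With day 14 in place of day 15 the change was 0.03 ± 0.051 (adjusted p = 0.70), and with day 15 set against day 9 it was -0.18 ± 0.051 (adjusted p = 0.0040). HOXA7 and HOXB7 were called higher on day 15 than on day 9 (0.42 ± 0.15 and 0.36 ± 0.088), though not higher than on day 8. The changes of HOXC8, HOXA6, HOXC6, HOXB6 and HOXD8 were called in the same direction with either replacement. Over the same days, the protein-coding HOXC5 had 7.47 ± 0.59 CPM on day 15 and 28.0 ± 3.1 on day 8 (-1.90 ± 0.17), against the direction of HOXC6. HOXD4 had 36.9 ± 2.4 CPM on day 15 and 79.7 ± 3.4 on day 8 (-1.11 ± 0.083), and HOXD3 had 14.0 ± 0.34 and 20.1 ± 1.5, so both were lower, as HOXD8 was. HOXD1 (-2.39 ± 0.16) and HOXB1 (-1.34 ± 0.077), at the 3′ ends of their clusters, had the largest changes in groups 1 to 3. HOXD9, 5′ of HOXD8, went the other way at a low level, with 0.972 ± 0.28 CPM on day 15 and 0.393 ± 0.14 on day 8 (1.29 ± 0.38). HOXC9 had 2.81 ± 0.22 CPM on day 15 and 0.527 ± 0.14 on day 8 (2.40 ± 0.33), and HOXA-AS3 had 212 ± 37 and 34.4 ± 2.9 (2.62 ± 0.13). Of 17 motor column and pool genes, 9 were lower on day 15 and 7 higher. The largest changes were those of ISL2 (-3.62 ± 0.34), NOS1 (2.52 ± 0.20), RUNX1 (1.98 ± 0.28) and LHX4 (-1.85 ± 0.18).

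Markers of other cell types also differed over these days. Endoderm, endothelium and blood markers summed to between 22.2 and 32.8 TPM on day 15 and between 3.52 and 4.23 on day 8, of which FOXA2, which floor plate cells also express, gave 22.1 TPM on day 15 and 2.59 on day 8. Of the 6 of these 8 markers that were tested, 3 were higher on day 15 than on day 8 and 1 lower. SOX17 had 1 count in all on day 15 and 0 on day 8, and GATA4 had 0 on both days. Of the 8 glia markers, 5 were higher on day 15 than on day 8 and 2 lower, and 6 were higher on day 15 than on day 0 and 1 lower. Of the 4 neural crest markers tested, 2 were higher on day 15 than on day 8 and 1 lower, and SOX10 had 0 counts on day 15 and 2 in all on day 8. Their part in the member changes was not tested.

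End to end, 7 of 8 members were higher on day 15 than on day 0 and 1 was lower, against 76.5% of all genes called, 40.3% higher and 36.2% lower. HOXA6 had 202, 201 and 224 counts on day 15 and 4, 4 and 0 on day 0, a 64.9-fold higher level (6.02 ± 0.33, adjusted p = 1.7e-19) that rests on few counts on day 0. HOXD8 averaged 13.7 ± 0.61 CPM on day 15 and 0.275 ± 0.028 on day 0 and was 49.1-fold higher (5.62 ± 0.14, adjusted p = 2.2e-30). HOXC6 was 8.02-fold higher, HOXB6 3.04-fold, HOXB8 2.66-fold and HOXC8 2.65-fold, the last after its fall to near 0 on days 1 and 2. HOXA7 (0.78 ± 0.15) was called although its libraries overlapped, with 13.8, 12.6 and 8.36 CPM on day 15 and 5.94, 9.51 and 4.74 CPM on day 0. HOXB7 was the member that ended lower, with 12.8, 12.9 and 14.5 CPM on day 15 and 20.4, 19.1 and 21.1 CPM on day 0 (-0.60 ± 0.085, adjusted p = 6.2e-08). In TPM it averaged 26.1 ± 3.5 on day 15 and 28.9 ± 1.5 on day 0, and limma on log2(TPM + 1) did not call it (-0.15, adjusted p = 0.17). Its ratio of TPM to CPM was 1.95 on day 15 and 1.43 on day 0. As given above, the HOXB7 span runs across HOXB8 and HOXB9.

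The cofactors with which HOX proteins bind DNA were also higher at the end. Of 9 tested, 8 were higher on day 15 than on day 0 and 0 lower. MEIS1 had 202 ± 6.9 CPM on day 15 and 0.735 ± 0.14 on day 0, MEIS2 had 467 ± 3.9 and 10.5 ± 3.9, and PBX3 had 142 ± 6.1 and 1.73 ± 0.81. The median log2 change over the 9 was 1.67, beside 1.51 over the 8 members and 0.07 over all genes.

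The members did not change on the same steps. Over the 14 steps between successive sampled days, 42 of 112 member steps were called, against 15.7% of all gene steps. HOXB8 had 7 steps up and 3 down, HOXC6 6 up and 1 down, HOXD8 5 up and 1 down, HOXC8 4 up and 1 down, HOXB6 and HOXB7 3 up and 2 down each, HOXA6 3 up and 0 down, and HOXA7 0 up and 1 down. Without replicate 1 the number fell to 22 of 112. Calls among all genes fell too in that fit, as from 4530 to 2348 on day 2 against day 1. The share over all gene steps in that fit is not given here, so 22 of 112 has no background beside it. Between days 4 and 8 the HOXC6 gene rose on every step and HOXB8 on the first alone. Of the 8 members, 3 were called on day 5 against day 4 (6.72% of all genes), 5 on day 6 against day 5 (8.43%), 1 on day 7 against day 6 (6.33%) and 2 on day 8 against day 7 (9.78%), all of them higher. HOXC8 had 1.68, 1.60 and 3.01 CPM on day 6 and 0.906, 0.916 and 0.869 on day 5, and it was called higher (1.26 ± 0.31), with 1 day 6 library well above the other two.

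**Figure D4:**
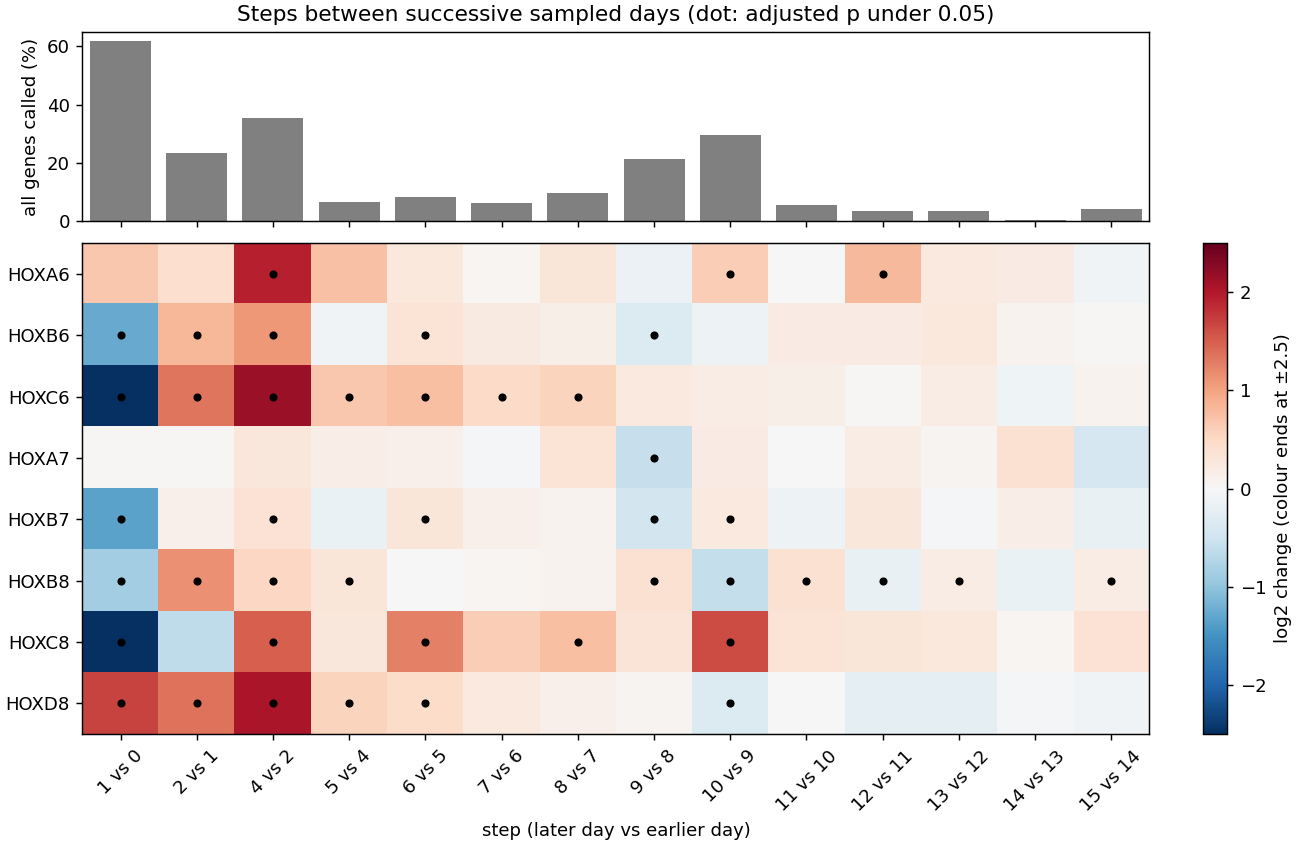
Upper panel, percent of all genes called on each step between successive sampled days; lower panel, log2 change of each gene (colour, ending at ±2.5), later day against earlier day, with a dot for an adjusted p under 0.05. HOXC8 and HOXB8 change in opposite directions on day 10 against day 9, and late dots belong mostly to HOXB8.

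Days 9 and 10 set several members apart. On day 9 against day 8, HOXB8 rose and HOXB6, HOXA7 and HOXB7 fell, 4 of 8 called, against 21.5% of all genes, 10.5% higher and 11.0% lower. HOXB8 had 287, 311 and 312 CPM on day 9 and 245, 219 and 234 on day 8 (0.38 ± 0.051, adjusted p = 7.4e-07). Day 9 was its highest day, and the libraries did not overlap. Its neighbour HOXB7 had 9.82, 10.4 and 11.0 CPM on day 9 and 15.3, 12.2 and 15.3 on day 8 (-0.46 ± 0.088, adjusted p = 2.4e-04). HOXB6 (-0.34 ± 0.079) and HOXA7 (-0.58 ± 0.15) fell as HOXB7 did, so members of the HOXB cluster moved in opposite directions on this step.

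On day 10 against day 9, HOXA6, HOXB7 and HOXC8 rose and HOXB8 and HOXD8 fell, 5 of 8 called, against 29.6% of all genes, 15.9% higher and 13.7% lower. HOXC8 had 22.4, 17.8 and 24.3 CPM on day 10 and 7.37, 7.53 and 5.89 on day 9, a 3.09-fold rise in 1 day with no overlap (1.63 ± 0.17, adjusted p = 9.9e-09). HOXB8 had 202, 214 and 191 CPM on day 10 and 287, 311 and 312 on day 9 (-0.59 ± 0.051, adjusted p = 4.2e-11), and all its day 10 libraries were lower. HOXD8 averaged 20.6 ± 1.0 CPM on day 10 and 26.1 ± 1.7 on day 9 (-0.34 ± 0.076). Neuron markers summed to between 1959 and 2866 TPM on day 10 and between 3553 and 3889 on day 9, and their part in these changes was not tested. Endoderm, endothelium and blood markers (8 genes) summed to between 8.52 and 11.9 TPM on day 10 and between 4.03 and 4.92 on day 9, with SOX17 at 0 on both days and FOXA2 as the largest part.

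After day 10 few steps were called. HOXB8 rose on day 11 and day 13, fell on day 12 and rose on day 15, while HOXA6 rose on day 12 (0.80 ± 0.20). The members called were 1 of 8 on day 11 (5.55% of all genes), 2 on day 12 (3.41%), 1 on day 13 (3.52%), 0 on day 14 (0.314%) and 1 on day 15 (4.05%), each against the day before. On day 14 against day 13 the smallest adjusted p among the members was that of HOXB8 (0.20), 2 members had an unadjusted p under 0.05 in edgeR, and DESeq2 called 0. HOXB8 day means were 202, 262, 231, 264, 237 and 269 CPM on days 10 to 15, so the odd days were higher than the even ones next to them. HOXC8 and HOXD8 had no called step after day 10, but their day means did not stay level. HOXC8 averaged 21.5 CPM on day 10 and 53.9 on day 15, and HOXD8 20.6 and 13.7, a comparison that was not tested.

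For the alternation, days 11 and 13 were set against days 10, 12 and 14, weighted so that a straight trend cancels. The p-values measure the spread between libraries within days, not the spread between days. The HOXB8 day means given above enter the same comparison, so it is no independent test of their pattern. HOXB8 was the only member called (0.23 ± 0.033, adjusted p = 4.8e-05), 1 higher and 0 lower of 8, against 5.98% of all genes, 2.33% higher and 3.65% lower. The log2 differences of the other members lay between -0.19 and 0.10. Some genes beside the members were also called, and others were not. HOXB9 was 0.32 ± 0.035 higher on the log2 scale on odd days (adjusted p = 1.4e-07), HOXB-AS3 was 0.39 ± 0.045 higher (adjusted p = 6.1e-07) and HOXA-AS3 was 0.60 ± 0.080 higher (adjusted p = 2.3e-05). The antisense pair were the 2 of 9 noncoding genes of the clusters that were called, and HOXD-AS2, which overlaps HOXD8, was not (-0.14 ± 0.15). Nor were HOXC4 (0.13 ± 0.058), HOXC5 (-0.17 ± 0.11), HOXC9 (0.05 ± 0.20) and HOXD9 (-0.02 ± 0.23). In HOX groups 1 to 3, 7 of 8 were higher on odd days, in groups 4 and 5, 2 of 7, and in groups 9 and 10, 1 of 4. Per the labels, medium was changed on alternate days, on days not given in the sources used here, and its part in this difference was not tested.

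**Figure D5:**
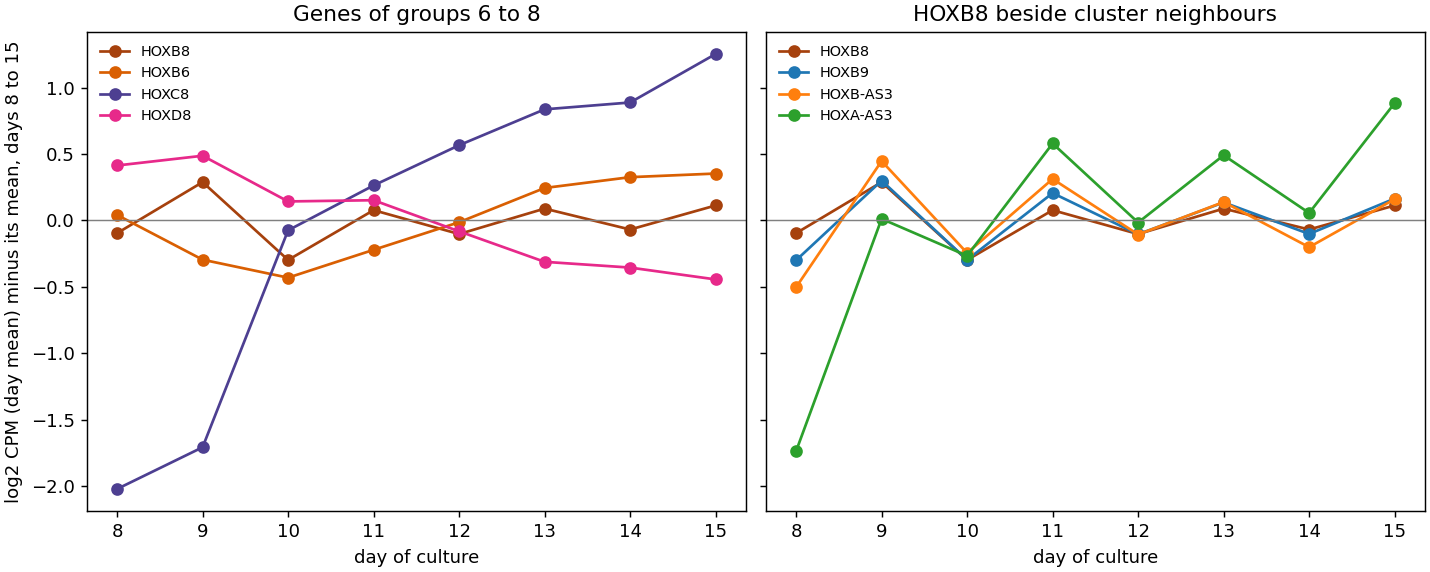
Day means of log2 CPM, each gene centred on its own mean over days 8 to 15, against day of culture. On the left HOXC8 climbs while HOXD8 declines; on the right HOXB8, HOXB9, HOXB-AS3 and HOXA-AS3 are higher on days 11, 13 and 15 than on the even days beside them.

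Among themselves the members were ordered by how alike their day means were (Pearson r over 15 day means of log2 CPM, as a description, since days of 1 course are not independent). HOXB6 and HOXC6 were most alike (r = 0.944), followed by HOXB6 and HOXB8 (0.928), HOXA6 and HOXA7 (0.903) and HOXA6 and HOXB6 (0.903). HOXB7 and HOXD8 were least alike (r = -0.015), followed by HOXA6 and HOXB7 (0.265), HOXB7 and HOXB8 (0.290) and HOXC8 and HOXD8 (0.297). Genes of 1 cluster were therefore not always alike, as HOXB7 and HOXB8 share a locus. Among 11276 other genes with enough counts, the protein-coding gene most like HOXC6 was HCN2, which encodes a pacemaker channel subunit (r = 0.995). HOXD8 was closest to ADAM12 (0.994) and to ELAVL4 (0.994), a neuronal RNA-binding protein and 1 of the neuron markers. HOXA6 was closest to HES1, a Notch-responsive repressor (0.993), and NTN1, the guidance cue netrin (0.992), and HOXC8 to BRINP3 (0.984) and CHRD, which encodes the BMP antagonist chordin (0.984). HOXB8 was closest to SCG3 (0.986) and PKNOX1, a HOX cofactor of the list above (0.980), HOXB6 to PNMA2 (0.977), HOXA7 to SHARPIN (0.963) and HOXB7 to FADS2, a fatty acid desaturase (0.931).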

How the data were processed

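The authors deposited 1 table of expected counts and 1 table of TPM, both per Ensembl gene for all 45 libraries. Per the submitters' processing notes, bcl2fastq 2.20.0, RSEM and the GRCh38 build were used; no version of RSEM, annotation or counting strand is stated there. Expected counts, as deposited, need not be whole (92.5% were), so they were rounded. Symbols came from GENCODE release 29, which matched 57895 of 58233 genes; the other 338 held 0.0276% of the counts.

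Counts were tested with edgeR 4.0.16 in R 4.3.3 (TMM, robust quasi-likelihood F test, day as a factor, all 45 libraries, 30 residual degrees of freedom). The filter on low counts left 19436 genes, over which p-values were adjusted by Benjamini-Hochberg. TMM factors lay between 0.925 and 1.06, and the median biological coefficient of variation was 8.62%. The fit was also run on simulated counts, with the same spread for all genes and no changes set in genes of low level. That run does not bear on calls at low counts. Levels between genes used the TPM values that the authors deposited. An exact permutation test of 3 libraries against 3 cannot go below p = 0.1 and was not used.

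The members and gene lists were chosen with earlier results of these data known. Besides the members, the rule for named genes took, for each list and comparison, up to 4 called genes with the largest log2 change, of which the text gives a part, the 3 protein-coding genes most like each member among those reaching 10 CPM, and overlapping genes. A gene so taken in 1 comparison may be given in another, chosen after its values were seen, as CDX1, CDX2 and ETV4 were, and HOXD-AS2 and the HOX genes that were not called. Alternatives were DESeq2 1.42.0, its size factors in edgeR, no filter (37223 genes), limma 3.58.1 on log2(TPM + 1) or log2(TPM + 0.1) (18075 genes), the replicate number as a block, only the days compared, each replicate left out, and neighbouring days. The summed level of the neural crest markers is not reported here.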

Additional observations from a re-analysis of the deposited data

How the results depend on the processing

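Of 582 values of the members under the alternatives, 569 kept their side of the threshold and, where called, their direction. Of the rest, 7 lost the call, 1 gained it and 5 reversed, that is, the sign differed and at least 1 of the fits made a call. Among these 5, only HOXB8 was called in both fits, with day 9 in place of day 8. The others were not called in the main fit. Values called in neither fit could change sign, as HOXA7 did with day 14 in place of day 15 against day 8 (0.28, against -0.15). On day 1 against day 0, HOXA7 reversed with limma on log2(TPM + 1) (-0.42) and log2(TPM + 0.1) (-0.47), and leaving out 1 replicate gave 1 to 2 members higher, with HOXA7 added without replicate 2. With day 15 against day 9 in place of day 8, HOXA7 (0.42), HOXB7 (0.36), HOXB8 (-0.18), HOXB9 (-0.14), HOXB-AS3 (-0.29) and ALDH1A2 (-0.95) reversed, and 2 members were lower instead of 1. On day 15 against day 0, 0 members were lower with log2(TPM + 1) and 0 with log2(TPM + 0.1), where HOXB7 was -0.15 and -0.16 and lost its call. The cause was not tested.

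Among all genes, leaving out 1 replicate gave 2348 to 3612 calls on day 2 against day 1 and 4438 to 5972 on day 4 against day 2. For odd against even days, 1162 genes were called, against 763 with no filter, 559 with log2(TPM + 1), 457 with log2(TPM + 0.1), 176 with only the days compared and 160 to 512 with 1 replicate left out. Member steps called numbered 42, and 22 to 39 with 1 replicate left out, where the share over all gene steps is not given. Fewer samples enter those fits. Replicate numbers did not pair the libraries (r between -0.254 and 0.422 for the same number, over 0.1 in 5 of 18 pairs, and best with the own number in 5 of 18). With the replicate block, 12001 genes were called on day 1 against day 0, against 11997 without it, 1237 against 1162 for odd against even days, and 44 against 42 member steps. Low counts limit HOXA6 on days 0 to 2, HOXC8 on days 1 to 4 and HOXD8 on day 0.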
